A study of Mus musculus with 12 samples.

Results

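The 7 genes described here encode the 4 MiT/TFE transcription factors (Tfeb, Tfe3, Mitf and Tfec) and the folliculin complex (Flcn with its partners Fnip1 and Fnip2). They were chosen by name, and all 7 were found among the 12960 genes counted and passed the filter on low counts, which left 10822 genes. RNA sequencing was done on bone marrow-derived macrophages (BMDMs) of WT mice and of AMPKβ1-/- mice, which lack the β1 subunit of AMPK in all tissues. Marrow was taken from the tibia and femur and differentiated for 7 days in L929 medium, a source of M-CSF, and the cells were kept for 6 h with vehicle (0.1% DMSO) or with 10 μM of PF-06409577 (PF), an activator selective for β1-containing AMPK. Each of the 4 groups (WT vehicle, WT PF, AMPKβ1-/- vehicle and AMPKβ1-/- PF) had 3 libraries, and the age and sex of the mice that gave the marrow, or whether libraries came from separate mice, were not given in the sources used here. P values therefore measure the spread between libraries, which may be technical.

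AMPK is a kinase that becomes active when cellular energy is low. When nutrients are plentiful, mTORC1 at the lysosome phosphorylates TFEB and TFE3, and 14-3-3 proteins hold them in the cytosol. Folliculin with FNIP1 or FNIP2 is a GTPase activating protein for RagC and RagD, and in this way it lets mTORC1 reach TFEB and TFE3. Active AMPK phosphorylates FNIP1, after which TFEB and TFE3 enter the nucleus and turn on genes of lysosomes and autophagy, the CLEAR network. Most of this control acts on proteins, which were not measured in these libraries. Transcript levels were compared to ask whether the factors and the complex themselves changed with the activator or with loss of β1, and whether their target genes did.

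Libraries held 8935609 to 14358180 counts assigned to genes. Prkab1, which encodes AMPKβ1, was at 43.4 to 45.3 CPM (counts per 1000000 of the library, normalised by TMM) with vehicle in WT and at 6.05 to 8.39 CPM in AMPKβ1-/- BMDMs, and it was lower there by edgeR's quasi-likelihood test (log2 fold change −2.57, SE 0.12, adjusted p = 8.85e-09). All 7 macrophage markers were detected, with a sum of 23978 to 28016 CPM per library. The 4 of 7 granulocyte markers in the table summed to at most 1.22 CPM, the 5 fibroblast markers to at most 8.66 CPM in 1 library of the AMPKβ1-/- vehicle group, the 2 of 4 melanocyte markers to at most 1.18 CPM, and 0 of 6 lymphoid markers were in the table. These are bulk samples, in which fewer cells of a type and less RNA per cell cannot be told apart. The libraries also differed in how counts depended on the GC content of a gene. Relative to the mean of all libraries, log2 CPM changed by 0.36 to 0.72 per 10 percentage points of GC content in WT vehicle libraries, by −0.05 to 0.37 in WT PF, by −0.36 to −0.10 in AMPKβ1-/- vehicle and by −0.51 to −0.33 in AMPKβ1-/- PF. Since the trend moved with the groups, each fold change below is also given after the trend in GC content and transcript length was removed from each library. That removal moved the median log2 fold change of all tested genes from −0.03 to 0.12 in AMPKβ1-/- against WT with vehicle.

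Per kb of transcript, Tfe3 and Tfeb were the most abundant MiT/TFE transcripts in every library. In WT BMDMs with vehicle, Tfe3 was at 98.9 ± 9.18 CPM per kb (SD, n = 3) and Tfeb at 67.5 ± 4.31, followed by Mitf at 4.24 ± 0.80 and Tfec, a family member known from macrophages, at 2.08 ± 0.70. In the folliculin complex, Fnip2 stood at 46.6 ± 7.52 and Flcn at 46.5 ± 2.66 CPM per kb, with overlapping libraries, and Fnip1 at 1.01 ± 0.34, which overlapped Tfec. The level of Fnip2 per kb was thus 33.6 to 72.4 times that of Fnip1 in the WT vehicle libraries and 35.3 to 54.8 times in WT PF. It was 8.71 to 17.2 times in AMPKβ1-/- vehicle and 7.06 to 8.42 times in AMPKβ1-/- PF, so libraries of the genotypes did not overlap in this ratio. The ratio is as counted, and Fnip1 has a lower GC content (38.9%) than Fnip2 (49.2%). Between the genotypes with vehicle, Fnip1 changed by 2.22 on the log2 scale as counted and by 0.94 with the GC and length trend removed. The same values for Fnip2 were 0.15 and 0.04.

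The order of the levels changed in part between groups. In WT BMDMs with PF, Fnip2 (70.8 ± 10.5 CPM per kb) overlapped Tfe3 (77.7 ± 5.38) and stood above Tfeb (53.8 ± 6.70) and Flcn (45.1 ± 0.45). In AMPKβ1-/- BMDMs the order was Tfe3, Fnip2, Tfeb, Flcn and Mitf with vehicle and with PF alike, and each of these stood apart from the next in all libraries. With vehicle there, Tfe3 was at 75.0 ± 6.18, Fnip2 at 51.7 ± 3.28, Tfeb at 45.9 ± 1.51, Flcn at 36.4 ± 2.60 and Mitf at 10.1 ± 1.68 CPM per kb. Fnip1 (4.74 ± 1.33) overlapped Tfec (3.10 ± 0.43) with vehicle and stood above it with PF (6.92 ± 1.04 against 3.39 ± 0.38). Mitf made up 1.81% to 2.97% of the summed MiT/TFE level per kb in WT vehicle libraries, 3.14% to 5.47% in WT PF, 5.90% to 8.69% in AMPKβ1-/- vehicle and 8.49% to 9.41% in AMPKβ1-/- PF. These shares are as counted. Between the genotypes with vehicle, Mitf changed by 1.25 on the log2 scale, Tfeb by −0.56 and Tfe3 by −0.40. With the GC and length trend removed these values were 0.56, 0.01 and 0.10.

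**Figure D1:**
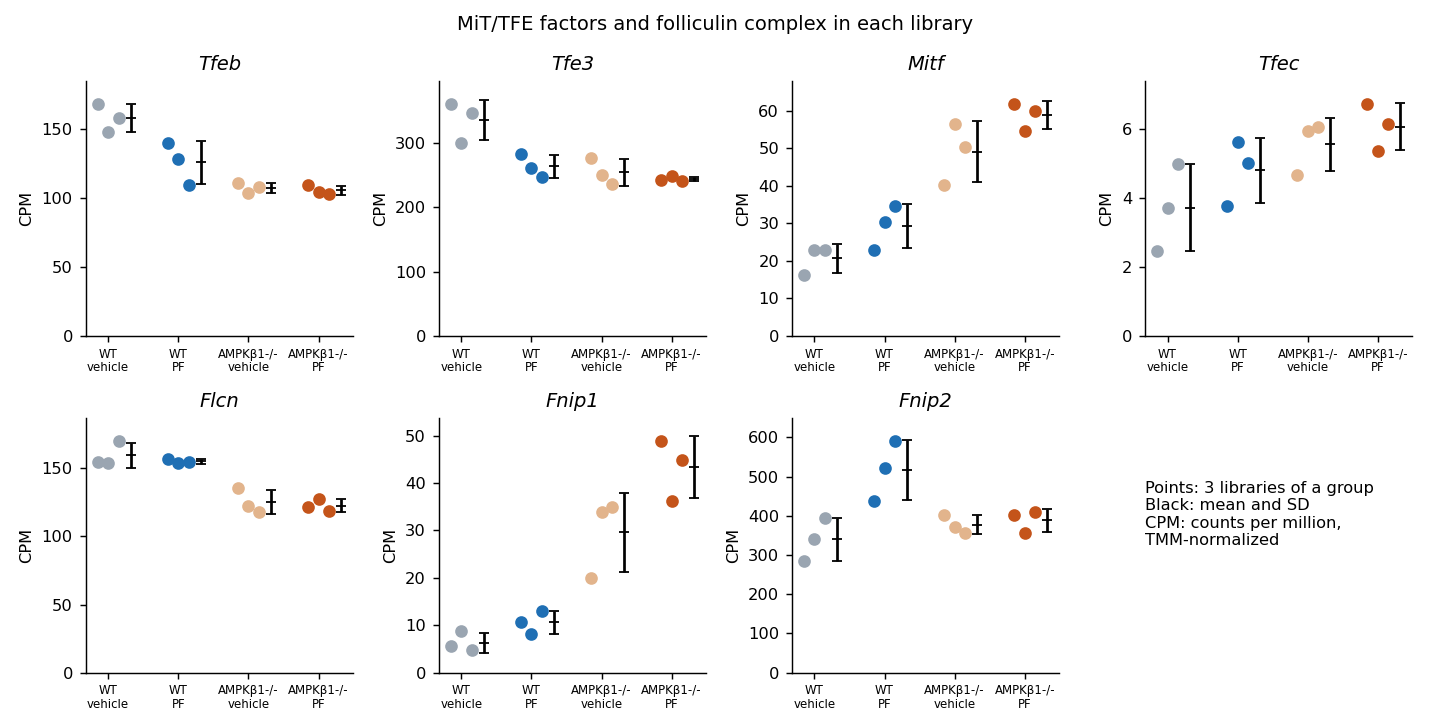
CPM (vertical axes, from 0) of the 7 genes in each library of the 4 groups, with the mean and SD of a group in black. Fnip2 was highest in the 3 WT PF libraries, Tfeb and Tfe3 were highest in the WT vehicle libraries, and all AMPKβ1-/- libraries exceeded all WT libraries in Mitf and Fnip1.

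Fnip2 rose with PF in WT BMDMs. Its levels were 285, 340 and 395 CPM with vehicle and 438, 521 and 591 CPM with PF (2668 to 3969 and 5109 to 7686 counts), so the groups did not overlap. In AMPKβ1-/- BMDMs it was at 403, 372 and 356 CPM with vehicle and at 403, 355 and 409 CPM with PF, where all libraries lay below the lowest of WT PF. By edgeR's quasi-likelihood test, with Benjamini-Hochberg adjustment over all tested genes, the log2 fold change with PF in WT was 0.60 (SE 0.12, 95% interval 0.35 to 0.86, adjusted p = 0.00708), and Fnip2 ranked 240 by p among the 10822 tested genes. It was 0.67 (SE 0.091, adjusted p = 0.000449) with the GC and length trend removed, and Fnip2 has a GC content near the median of tested genes (49.2% against 50.1%). The gene passed the test in 22 of 22 alternatives, with log2 fold changes of 0.49 to 0.72. In AMPKβ1-/- BMDMs the log2 fold change was 0.04 (SE 0.12, 95% interval −0.21 to 0.30, adjusted p = 0.985).

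The difference between these responses of Fnip2, WT minus AMPKβ1-/-, was 0.56 on the log2 scale (SE 0.17, 95% interval 0.20 to 0.92), which had an unadjusted p of 0.00496 and did not pass after edgeR's adjustment over all genes (adjusted p = 0.168). With the GC and length trend removed it was 0.61 (SE 0.13) and passed (adjusted p = 0.0318). Repeats of that fit with 1 library left out, which were added after the data were seen, kept the call in 3 of 12 (adjusted p 0.00427 to 0.0895). Without the trend removed it passed once, without WT PF library 1 (0.67, adjusted p = 0.0393).

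Flcn, which encodes the folliculin protein itself, had nearly the same level with and without PF. It was at 155, 154 and 170 CPM in WT vehicle and at 157, 154 and 155 CPM in WT PF, and the groups overlapped (log2 fold change −0.04, SE 0.074, 95% interval −0.20 to 0.12, adjusted p = 0.702 by edgeR). The sign of this value turned with library size alone as the scaling (0.04) and once the GC and length trend was removed (0.19, adjusted p = 0.0944). The AMPKβ1-/- libraries stood at 135, 122 and 118 CPM with vehicle and 121, 128 and 119 CPM with PF, and the log2 fold change with PF was −0.03 (SE 0.075, adjusted p = 0.985).

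Fnip1, the partner that AMPK is known to phosphorylate, was a scarce transcript in WT BMDMs, with 47 to 94 counts per library with vehicle and 87 to 169 with PF. The levels were 5.56, 8.68 and 4.68 CPM with vehicle and 10.6, 8.14 and 13.001 CPM with PF, so 1 library of each group crossed into the range of the other. The log2 fold change with PF in WT was 0.75 (SE 0.28), which missed the threshold in edgeR (adjusted p = 0.0814), passed in DESeq2 (adjusted p = 0.0196) and was 0.39 (adjusted p = 0.288) with the GC and length trend removed. The AMPKβ1-/- libraries stood at 20.1, 33.8 and 35.0 CPM with vehicle and 48.9, 36.1 and 44.9 CPM with PF. There the groups did not overlap, but the log2 fold change of 0.54 (SE 0.22) had an unadjusted p of 0.0287 and an adjusted p of 0.903 by edgeR, and it was 0.19 with the trend removed. Genes with less than 40% GC content, as Fnip1 has (38.9%), had a median of 0.37 on the log2 scale in that comparison.

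The promoters of the 3 genes of the folliculin complex are shown because their proteins act together and because the MiT/TFE factors bind the letters CACGTG within CLEAR elements. The sequences are RefSeq's, on GRCm38.p6, and run 5′ to 3′ on the strand of the gene. They begin 250 bases before the annotated start, with Fnip1 continuing for 26 bases after it, and capitals mark the motifs found. Fnip1 lies at chr11:54437929-54438204 on the plus strand, Fnip2 at chr3:79567680-79567929 on the minus strand and Flcn at chr11:59810040-59810289 on the minus strand.
Fnip1: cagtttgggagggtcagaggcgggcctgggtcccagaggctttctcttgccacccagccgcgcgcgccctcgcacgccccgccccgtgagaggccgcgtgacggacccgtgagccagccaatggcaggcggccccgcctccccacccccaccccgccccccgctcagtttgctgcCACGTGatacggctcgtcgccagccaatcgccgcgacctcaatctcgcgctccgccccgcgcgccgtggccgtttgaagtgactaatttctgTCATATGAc
Fnip2: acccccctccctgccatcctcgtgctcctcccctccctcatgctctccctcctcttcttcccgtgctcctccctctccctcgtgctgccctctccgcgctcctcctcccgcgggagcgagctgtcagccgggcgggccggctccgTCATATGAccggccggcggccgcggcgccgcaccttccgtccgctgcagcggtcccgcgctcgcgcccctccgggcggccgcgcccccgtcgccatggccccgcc
Flcn: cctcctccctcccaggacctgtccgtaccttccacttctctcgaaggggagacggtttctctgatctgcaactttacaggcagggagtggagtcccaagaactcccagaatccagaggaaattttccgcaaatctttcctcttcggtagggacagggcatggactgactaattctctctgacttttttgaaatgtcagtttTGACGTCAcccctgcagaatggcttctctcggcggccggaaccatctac

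The search covered windows of 300 bases at 32851 start sites, 250 before and 50 after each start, of which 12 belonged to the 7 genes, and each motif reads the same on both strands. CACGTG was found in 7.15% of all windows and in 1 of the 12, that of Fnip1, 75 bases before the start. Its longer form TCACGTGA, which contains CACGTG, was found in 0.974% of windows and in 0 of the 12. The letters TGACGTCA, bound by factors of the CREB family, were in 1.79% of windows, and among the 12 in that of Flcn 49 bases before the start and in 1 of the 3 of Mitf. Fnip1 and Fnip2 shared TCATATGA, 18 bases after and 105 bases before their RefSeq starts. This string was in 0.323% of windows and was picked after these sequences were seen. The GENCODE annotation places both starts elsewhere, inside the stretches printed, at 54438199 for Fnip1 and at 79567796 for Fnip2. For Fnip2 the string lies before the RefSeq start but after the GENCODE start. For Fnip1 it lies after the RefSeq start and spans the GENCODE start. These matches describe the letters only.

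Transcripts of Tfeb and Tfe3, the factors that the folliculin complex controls, were lower with PF in WT BMDMs as counted. Tfeb was at 168, 148 and 158 CPM with vehicle and at 140, 129 and 109 CPM with PF, and it fell by 0.33 on the log2 scale (SE 0.089, adjusted p = 0.0245 by edgeR). Tfe3 was at 360, 300 and 346 CPM with vehicle and at 283, 260 and 247 CPM with PF, and it fell by 0.35 (SE 0.085, adjusted p = 0.0173). For both genes all PF libraries lay below all vehicle libraries. Neither change was left with the GC and length trend removed, where the log2 fold changes were −0.0055 (SE 0.067, adjusted p = 0.976) and −0.05 (SE 0.049, adjusted p = 0.601). Both are GC-rich transcripts, at 63.2% and 57.3%, and the tested genes with more than 60% GC content had a median of −0.27 on the log2 scale in this comparison. Both calls were also lost without WT vehicle library 1 or 3 or without WT PF library 2 or 3, with log2 fold changes of −0.34 to −0.23 (adjusted p 0.0638 to 0.141) for Tfeb and −0.34 to −0.29 (adjusted p 0.0550 to 0.0921) for Tfe3.

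Mitf and Tfec had higher mean levels with PF in WT BMDMs, but neither passed the test. Mitf, whose protein is best known from melanocytes, mast cells and osteoclasts, was at 16.1, 22.98 and 22.9 CPM with vehicle and at 22.98, 30.4 and 34.5 CPM with PF, with the lowest PF library level with the upper vehicle libraries. The log2 fold change was 0.50 (SE 0.17, adjusted p = 0.0583 by edgeR) and 0.19 (adjusted p = 0.251) once the GC and length trend was removed, while DESeq2 called it (0.52, adjusted p = 0.0204). Tfec was at 2.46, 3.69 and 4.98 CPM with vehicle and at 3.77, 5.62 and 5.00 CPM with PF, on 23 to 65 counts per library, and PF against vehicle gave 0.36 on the log2 scale (SE 0.24, adjusted p = 0.284). At this depth a Tfec difference of that size could not be told from the spread between libraries. With the GC and length trend removed the Tfec value was 0.05 (adjusted p = 0.926 by edgeR).

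Of the 7 genes, edgeR thus called 1 higher and 2 lower with PF in WT, where 6.99% of all tested genes were called higher and 8.95% lower. None of the 7 was past a log2 fold change of 0.8 as well, as were 1.52% of tested genes. The groups did not overlap for 3 of the 7, against 32.2% of all tested genes. With the GC and length trend removed, Fnip2 was the member still called, where 4.01% of tested genes were called higher and 2.49% lower. DESeq2 called 5 of the 7, the same 3 with Mitf and Fnip1, where it called 9.99% of tested genes higher and 9.10% lower.

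In AMPKβ1-/- BMDMs, 0 of the 7 genes were called with PF by edgeR or by DESeq2, and 1, Fnip1, had an unadjusted p below 0.05, as had 4.98% of tested genes. The share called among all tested genes was 0.0554% by edgeR and 0.453% by DESeq2, and 1 of the 7 did not overlap between the groups, against 14.5% of tested genes. Tfeb was at 111, 104 and 108 CPM with vehicle and at 110, 104 and 103 CPM with PF. Tfe3 was at 277, 250 and 236 CPM with vehicle and at 242, 248 and 241 CPM with PF, and both factors overlapped between the groups. Mitf was at 40.3, 56.5 and 50.5 CPM with vehicle and at 61.8, 54.6 and 60.1 CPM with PF (log2 fold change 0.26, SE 0.16, adjusted p = 0.982 by edgeR). Tfec was at 4.65, 5.93 and 6.05 CPM with vehicle and at 6.71, 5.34 and 6.14 CPM with PF.

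No member passed the test of the difference between the WT and AMPKβ1-/- responses in edgeR or DESeq2, and 3 (Fnip2, Tfeb and Tfe3) had an unadjusted p below 0.05, as had 14.3% of tested genes. The difference was −0.30 (SE 0.13, adjusted p = 0.298) for Tfeb and −0.29 (SE 0.12, adjusted p = 0.303) for Tfe3 on the log2 scale by edgeR. With the GC and length trend removed the values were −0.03 (adjusted p = 0.934) for Tfeb and −0.08 (adjusted p = 0.711) for Tfe3. DESeq2 called 1.76% of tested genes. By edgeR 0.416% passed, a share that was 1.36% once the GC and length trend was removed, where Fnip2 was 1 of them. Both PF comparisons of a member and its comparison of the genotypes share vehicle libraries and so are not independent of each other.

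**Figure D2:**
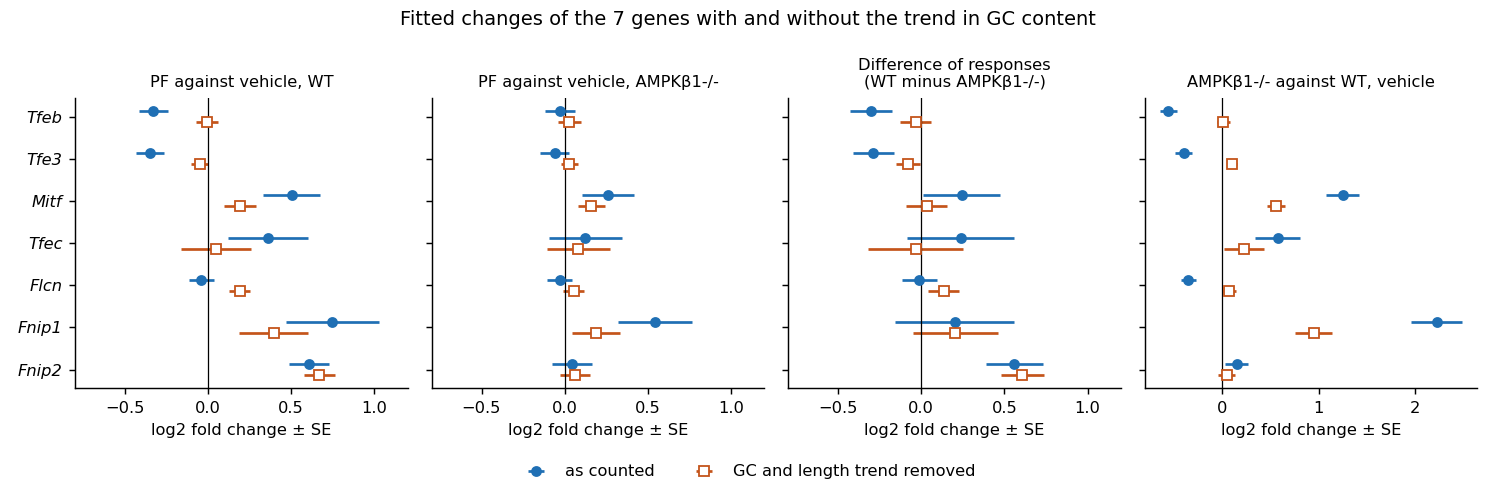
Log2 fold change (horizontal axes) with SE of the 7 genes in the 4 comparisons, as counted (filled circles) and after removal of the GC and length trend (open squares). Fnip2 stayed near 0.6 with PF in WT under both, whereas Tfeb and Tfe3 moved to about 0 with the trend removed, and Fnip1 and Mitf kept lower but positive values in AMPKβ1-/- against WT.

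With vehicle alone, edgeR called 6 of the 7 genes between AMPKβ1-/- and WT BMDMs, against 59.7% of all tested genes. With the GC and length trend removed it called 2 of the 7, against 36.8%. Fnip1 rose from 4.68 to 8.68 CPM in WT to 20.1 to 35.0 CPM in AMPKβ1-/- BMDMs, or by 2.22 on the log2 scale (SE 0.26, adjusted p = 5.08e-05 by edgeR). Mitf rose from 16.1 to 22.98 CPM in WT to 40.3 to 56.5 CPM, or by 1.25 on the log2 scale (SE 0.17, adjusted p = 8.03e-05). Neither gene overlapped between the genotypes. These 2 passed in 22 of 22 alternatives, and after removal of the GC and length trend the log2 fold changes were 0.94 (SE 0.19, adjusted p = 0.00151) and 0.56 (SE 0.092, adjusted p = 0.000305). Tfec rose as counted (0.57, SE 0.24, adjusted p = 0.0461), with overlapping libraries, but it passed in 12 of 22 alternatives and not with the trend removed (0.22, adjusted p = 0.424). DESeq2 gave it an adjusted p of 0.0516.

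The 3 GC-rich members were lower in AMPKβ1-/- BMDMs as counted, without overlap between the genotypes. Tfeb fell by 0.56 on the log2 scale (SE 0.089, adjusted p = 0.000163 by edgeR), Tfe3 by 0.40 (SE 0.085, adjusted p = 0.00109) and Flcn by 0.35 (SE 0.075, adjusted p = 0.00105). With the GC and length trend removed the log2 fold changes turned to 0.01 (adjusted p = 0.917), 0.10 (adjusted p = 0.108) and 0.07 (adjusted p = 0.390). In that setting the median of all tested genes was 0.12, against −0.03 as counted, and all 3 members lay below it. The call of Flcn was also lost with library size alone as the scaling (−0.14, adjusted p = 0.100), a setting that moved the median of all genes to 0.18. Fnip2 overlapped between the genotypes and was not called (0.15, SE 0.12, 95% interval −0.11 to 0.41, adjusted p = 0.299), although it passed with library size alone (0.35, adjusted p = 0.0455).

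These counts of 3 higher and 3 lower among the 7 stand against 29.7% higher and 30.0% lower among all tested genes. Fnip1 and Mitf were also past a log2 fold change of 0.8, as were 17.8% of tested genes. Of the 7, 5 did not overlap between the genotypes, against 62.9% of tested genes. With the trend removed, 2 of the 7 were called higher and 0 lower, where 26.4% of tested genes were higher and 10.4% lower.

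The order of the fold changes followed GC content among the 7. Fnip1 has the lowest GC content (38.9%), then Mitf (43.4%), Tfec (44.5%), Fnip2 (49.2%), Flcn (54.6%), Tfe3 (57.3%) and Tfeb (63.2%), and the change between AMPKβ1-/- and WT declined in that order. Over all tested genes with a known GC content, the median in that comparison was 1.44 below 40% GC, 0.84 from 40% to 45%, 0.17 from 45% to 50%, −0.23 from 50% to 55%, −0.39 from 55% to 60% and −0.44 above 60%. Fnip1 and Mitf lay above the median of their bins and Tfec below it. With PF in WT the medians ran from 0.47 below 40% to −0.27 above 60%, and Fnip2 at 0.60 stood against 0.13 in its bin. The part of this trend in the changes of Tfeb, Tfe3, Flcn and Tfec was not tested beyond the values given.

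**Figure D3:**
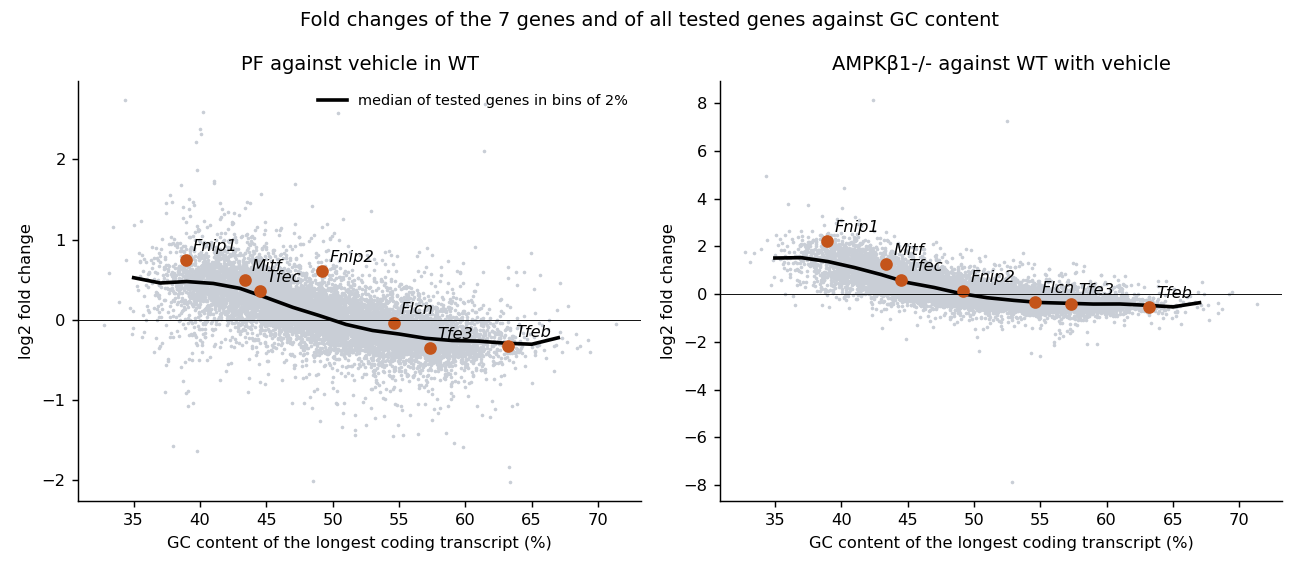
Log2 fold change (vertical axes) of all tested genes (grey) against the GC content of their longest coding transcript in percent, for PF against vehicle in WT and for AMPKβ1-/- against WT, with the 7 genes in orange and the median of bins of 2% as a line. Fnip2 lay well above the line with PF in WT, and Tfeb, Tfe3 and Flcn lay near it in AMPKβ1-/- against WT.

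Reads of the 7 genes could be told apart. Of the stretches of 50 bases in their longest coding transcripts, the length of 1 read, 0 were shared between members, and Fnip2 was the one member that shared any with another gene (0.552% of its stretches). Flcn lies on chr11:59791408-59810016 (minus strand) and Fnip1 on the same chromosome at chr11:54438199-54518235 (plus strand), Fnip2 at chr3:79455974-79567796 (minus), Tfeb at chr17:47737030-47792419 (plus), Tfe3 at chrX:7762560-7775202 (plus), Mitf at chr6:97807052-98021349 (plus) and Tfec at chr6:16833373-16898441 (minus), all on GRCm38 and all protein coding. These spans are those of GENCODE, whose starts differ from the RefSeq starts used for the promoters. Mitf has 8 annotated transcripts and Tfeb 15, which these counts per gene did not separate.

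The genes with the most similar pattern over the 12 libraries were found by Pearson's r of log2 CPM, as a description. They were Soat1 (0.926), Hmgcs1 (0.917) and Fabp4 (0.913) for Fnip2, of which Soat1 encodes an enzyme of cholesterol ester formation and Hmgcs1 one of cholesterol synthesis. For Fnip1 they were Pcf11 (0.998), Usp45 (0.996) and Cav2 (0.992), and for Mitf they were Cnot6l (0.996), Larp4b (0.995) and Kbtbd7 (0.994). Tfeb was most like Dpf2, Mybbp1a and Rbck1 (0.988 each), and Tfe3 most like Selenon (0.993), Myo18a (0.992) and Fmnl3 (0.989). For Flcn they were Cd300lf (0.976), Vwf (0.970) and Tcirg1 (0.969, a subunit of the vacuolar ATPase), and for Tfec they were Lancl2 (0.960), Wipf1 (0.958) and Tceal8 (0.952). Among the members, Fnip1 and Mitf varied together over the libraries (r = 0.954), both ran against Flcn (r = −0.959 and −0.900), and Fnip2 had r from −0.43 to 0.43 with the others. Without the GC and length trend, r was 0.814 for Fnip1 with Mitf, 0.14 for Fnip1 with Flcn, 0.39 for Mitf with Flcn and 0.791 for Fnip2 with Flcn, so both negative relations were gone. These points share depth and group, and as counted also the GC trend.

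Some genes of the CLEAR network, the lysosome and autophagy genes that TFEB and TFE3 can turn on, were called higher with PF in WT. Of 42 names, 40 were tested, of which 8 were called higher and 0 lower by edgeR, against 6.99% and 8.95% of tested genes, while the median log2 fold change of the 40 was −0.02 against 0.00 for all tested genes. These 8 calls became 5 without WT PF library 3. The 3 largest rises were Atp6v0d2 (1.09, SE 0.21, adjusted p = 0.00743), Rragd (0.77, SE 0.18, adjusted p = 0.0161) and Atp6v1a (0.74, SE 0.19, adjusted p = 0.0236). Atp6v0d2 and Atp6v1a encode subunits of the vacuolar ATPase that acidifies lysosomes, as do 3 others of the 8, and Rragd encodes RagD. Once the GC and length trend was removed, 12 were called higher and 0 lower, against 4.01% and 2.49% of tested genes. The median was then 0.15 against 0.04, and Atp6v1a was at 0.48 (adjusted p = 0.0715). With PF in AMPKβ1-/- BMDMs 0 of the 40 were called, against 0.0554% of all tested genes, with a median of −0.03.

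Atp6v0d2 shows the size of these changes. It was at 12.6 to 16.4 CPM in WT vehicle and at 25.0 to 37.6 CPM in WT PF, without overlap, and at 9.75 to 17.9 and 15.1 to 20.6 CPM in AMPKβ1-/- vehicle and PF. It is also an osteoclast marker, and the 5 of 6 osteoclast markers in the table summed to 37.7 to 41.9 CPM in WT vehicle and 54.5 to 64.2 CPM in WT PF, against 24.2 to 33.6 and 30.2 to 37.9 CPM in the AMPKβ1-/- groups, with Calcr not in the table. Without Atp6v0d2 itself, the other 4 summed to 21.3 to 29.1 CPM in WT vehicle and 23.6 to 29.5 CPM in WT PF, which overlapped. Atp6v0d2 thus made up most of the difference in the sum between the WT groups. In AMPKβ1-/- BMDMs the other 4 summed to 14.5 to 16.4 CPM with vehicle and 15.2 to 17.2 CPM with PF, below all WT libraries. Of the 40 genes, Atp6v1c1, another subunit gene, alone passed the test of the difference between the responses (0.64 on the log2 scale, SE 0.13, adjusted p = 0.0480 by edgeR). The difference was 0.42 to 0.73 over 21 alternatives, of which 7 kept the call (adjusted p 0.00266 to 0.180).

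In AMPKβ1-/- against WT BMDMs with vehicle, 28 of the 40 CLEAR genes were called lower and 2 higher, against 30.0% and 29.7% of all tested genes, with a median of −0.42 against −0.03 for all tested genes. The largest falls were those of Gpnmb (−0.78, SE 0.082, adjusted p = 1.5e-05), a known MITF and TFE3 target, and of Naglu (−0.74, SE 0.097, adjusted p = 5.35e-05) and Hexa (−0.68, SE 0.081, adjusted p = 2.96e-05), which encode lysosomal hydrolases. The rises were those of Atp6v1a (0.78, adjusted p = 0.00345) and Atp6v1h (0.49, adjusted p = 0.00299). Once the GC and length trend was removed, 16 were lower and 3 higher, against 10.4% and 26.4% of all tested genes, and Gpnmb kept most of its value (−0.62, adjusted p = 9.04e-07).

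**Figure D4:**
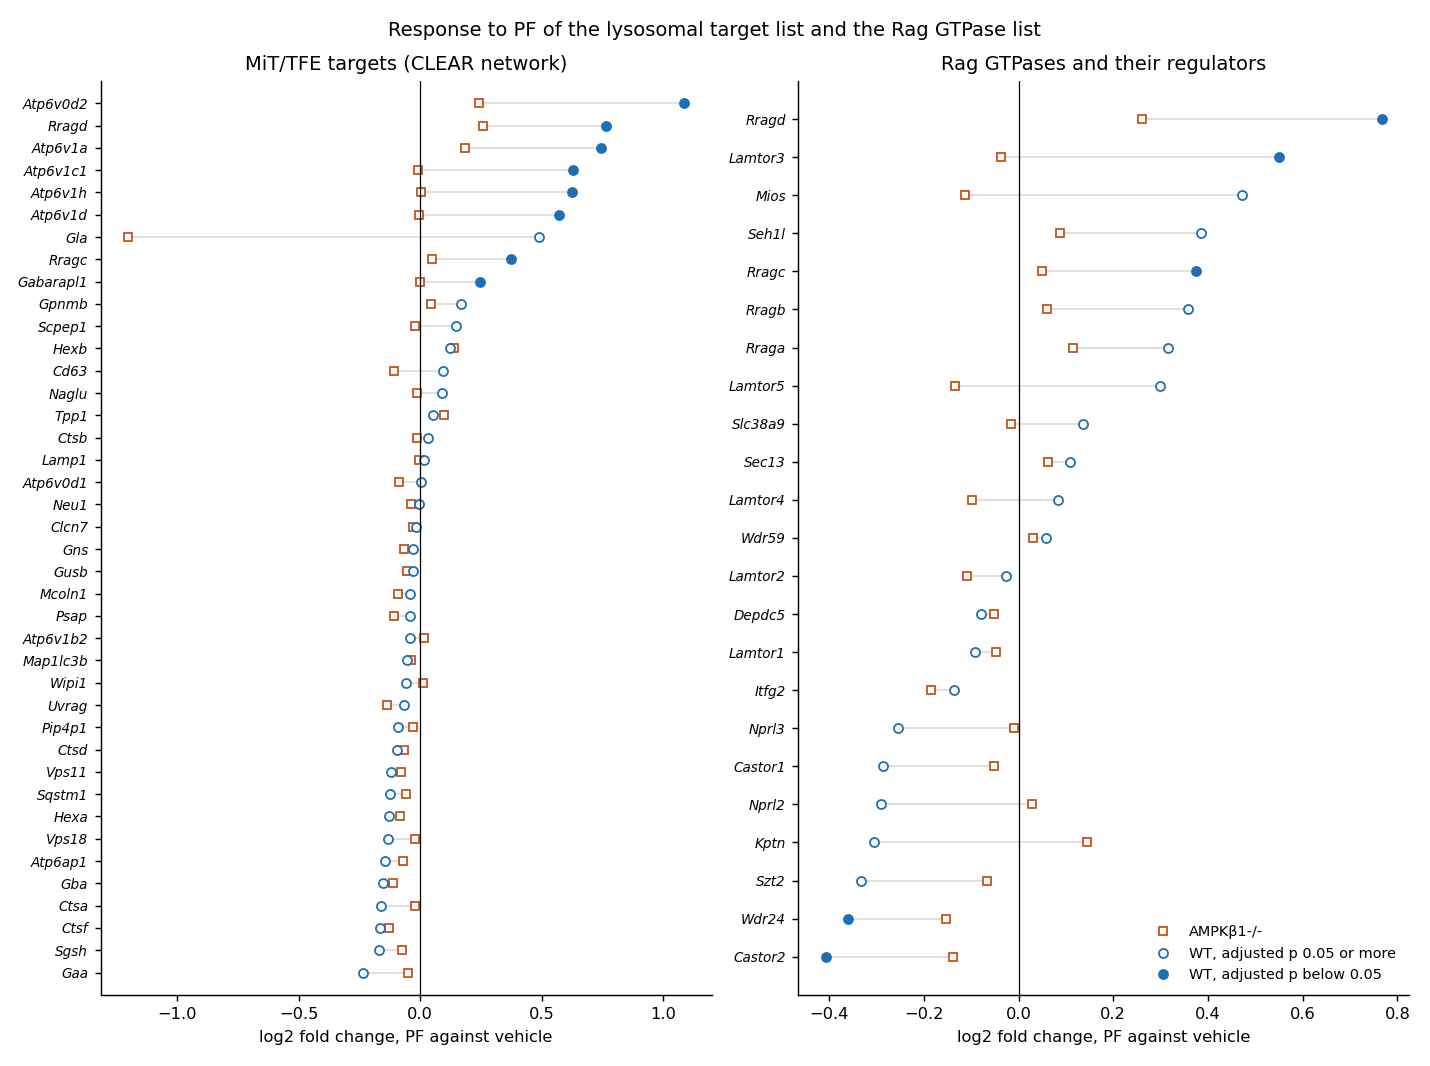
Log2 fold change with PF (horizontal axes) of the tested CLEAR genes and of the tested Rag GTPases and their regulators, in WT (circles, filled where the adjusted p was below 0.05) and AMPKβ1-/- BMDMs (squares). In WT 8 CLEAR genes were called, all higher. In AMPKβ1-/- BMDMs, where 0.0554% of all tested genes were called, none of either list was.

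The Rag GTPases recruit mTORC1 to the lysosome, and folliculin acts on RagC and RagD. Of 23 tested genes of the Rags and their regulators, 3 were called higher and 2 lower with PF in WT, against 6.99% and 8.95% of all tested genes. These 5 calls became 8 with DESeq2, 3 in the WT libraries alone, 2 without WT vehicle library 1 or WT PF library 3, 3 without WT vehicle library 3 or WT PF library 2, 8 without AMPKβ1-/- vehicle library 1 and 10 without WT PF library 1. Rragc rose (0.37, SE 0.072, adjusted p = 0.00570 by edgeR), from 182 to 196 CPM with vehicle to 236 to 263 CPM with PF. Rragd rose from 6.74 to 10.6 CPM to 13.9 to 18.1 CPM, and Lamtor3, a subunit of the Ragulator scaffold, rose (0.55, SE 0.095, adjusted p = 0.00292). These 3 were also called with the GC and length trend removed. Rragc and Rragd are also on the CLEAR list and were counted there. Castor2, an arginine sensor family member (−0.41, adjusted p = 0.0295), and Wdr24, a subunit of GATOR2 (−0.36, adjusted p = 0.0422), fell as counted and were not called with the trend removed. With PF in AMPKβ1-/- BMDMs 0 of the 23 were called, against 0.0554% of all tested genes. Rragc was there at 195 to 205 CPM with vehicle and 193 to 214 with PF. The difference between the responses was largest for Lamtor3 (0.59, SE 0.13, adjusted p = 0.0702) and did not pass.

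Between the genotypes, 4 of the 23 were called higher and 9 lower with vehicle, against 29.7% and 30.0% of all tested genes, and together these were close to the share of all genes. The largest rises were those of Mios (1.23), Rragb (0.85) and Seh1l (0.77), and the largest falls those of Castor1 (−0.62), Kptn (−0.62) and Wdr24 (−0.59), in log2 fold change by edgeR. Of these 6, Mios alone was called with the GC and length trend removed (0.71, adjusted p = 0.0180). In that setting 5 of the 23 were higher and 2 lower, against 26.4% and 10.4% of all tested genes.

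Of 18 tested partners and relatives of the folliculin complex, 4 were called higher with PF in WT and 0 lower, against 6.99% and 8.95% of all tested genes. These 4 calls became 2 in the WT libraries alone or without WT vehicle library 3, and 1 without WT PF library 2 or 3. They were the chaperone gene Hsp90aa1 (0.76, SE 0.21, adjusted p = 0.0286 by edgeR) and its co-chaperone gene Ahsa1 (0.33, SE 0.076, adjusted p = 0.0134), Gabarapl1 (0.25, SE 0.078, adjusted p = 0.0431), which encodes an autophagy protein of the GABARAP family, and C9orf72 (0.52, SE 0.11, adjusted p = 0.00919), whose protein is a structural relative of folliculin and the FNIPs. Without the GC and length trend, Ahsa1 (0.41, adjusted p = 0.000335) and Gabarapl1 (0.38, adjusted p = 0.00152) were called. Gabarapl1 is also on the CLEAR list and was counted there. None of the 18 was called with PF in AMPKβ1-/- BMDMs, where 0.0554% of all tested genes were. Between the genotypes 2 were higher and 7 lower, against 29.7% and 30.0% of all tested genes, led by Hsp90aa1 (1.50) and Prkaa1 (1.01), the gene of an AMPK catalytic subunit, and by Rab34 (−0.66), Nprl2 (−0.57) and Gabarap (−0.46). With the trend removed Hsp90aa1 stayed called (0.98, adjusted p = 0.000240) and Prkaa1 did not (−0.04, adjusted p = 0.778).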

How the data were processed

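The authors trimmed paired-end reads of 50 bases with Trim Galore and quantified them with Salmon, and the deposited values are estimated counts for each gene, as whole numbers without normalisation. The build and versions were not given in the sources used here. Columns were assigned to groups by name, 3 to a group.

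The main test was edgeR's (4.0.16, R 4.3.3) quasi-likelihood test with TMM and filterByExpr, in 1 fit of 4 group means to 12 libraries, with Benjamini-Hochberg adjustment over 10822 genes (threshold 0.05). SE are approximate, being the fold change divided by the root of its F, and intervals are 95%. The GC and length trend was fitted per library with natural splines (5 degrees of freedom, GENCODE M21 transcripts, 99.7% of tested genes) and entered as an offset. CPM per kb used the longest coding transcript, and log2 CPM a prior count of 2. With 3 libraries against 3, an exact permutation test of 1 gene cannot go below 0.1. Alternatives were DESeq2 1.42.0, limma-voom (3.58.1), other scalings and filters, the libraries of a contrast alone, each library left out, and the replicate number as a block. Replicate libraries differed by 2.2 to 18.6 times the variance that counting gives.

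The members and 5 gene lists were chosen with earlier results of these data known. The lists share some genes, so their counts are not independent of each other. Named were the members, Prkab1, list genes called in a contrast (where over 6 were called, the 3 largest rises and falls) and the 3 genes most like each member.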

Additional observations from a re-analysis of the deposited data

Results flagged for a closer look

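Atp6v1c1, a vacuolar ATPase subunit gene of the CLEAR list, differed in its response to PF between the genotypes by 0.64 on the log2 scale (SE 0.13, adjusted p = 0.0480 by edgeR, WT minus AMPKβ1-/-), a test of the difference itself. It was at 112 to 123 CPM in WT vehicle and at 161 to 207 CPM in WT PF, higher in 3 of 3 libraries, and at 126 to 150 and 131 to 142 CPM in AMPKβ1-/- vehicle and PF. With the GC and length trend removed the difference was 0.42 (adjusted p = 0.0313). Of 21 alternatives 7 kept the call, with adjusted p of 0.00266 (DESeq2) to 0.180 (without AMPKβ1-/- vehicle library 2). It was lost with DESeq2 size factors (0.0511), library size alone (0.0576), limma-voom (0.0545) and the replicate block (0.0562), and in 10 of the 12 fits that left out 1 library, all but those without WT PF library 1 or AMPKβ1-/- vehicle library 1.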

How the results depend on the processing

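Each log2 fold change of a member was recomputed under 22 alternatives, or 21 for the difference between the responses. Members called with PF in WT (3) became 5 with DESeq2, 1 in a fit of the WT libraries alone, 1 with the GC and length trend removed, and 1 to 5 with 1 library left out. All genes called there (1725) became 419 in the WT libraries alone, 704 with the trend removed, and 346 (without WT PF library 3) to 3243 (without WT PF library 1). All genes called with PF in AMPKβ1-/- BMDMs (6, or 539 at an unadjusted p below 0.05) became 0 with library size alone, with at least 10 counts in every library or with the replicate block, 49 with DESeq2, 27 with limma-voom, 62 in the libraries of the contrast alone, 3 with the trend removed, and 0 to 18 with 1 library left out. Genes whose responses differed (45) became 190 with DESeq2, 147 with the trend removed, and 5 (without AMPKβ1-/- vehicle library 2) to 284 (without WT PF library 1), of which 0 to 1 members, and 1 member with the trend removed. Between the genotypes, members called went from 6 to 2 and all genes from 6465 to 3978 with the trend removed. The cause was not tested.

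Signs turned for Flcn with PF in WT under library size alone (0.038), the trend removed (0.19) and 1 library left out (−0.068 to 0.0062). With PF in AMPKβ1-/- BMDMs the trend removed gave Tfeb 0.029, Tfe3 0.028 and Flcn 0.053, and leaving out 1 library gave Tfe3 −0.11 to 0.0048 and Flcn −0.070 to 0.028. The difference between the responses turned for Flcn under upper quartile scaling (0.021), library size alone (0.050), the trend removed (0.14) and 1 library left out (−0.070 to 0.037), and for Tfec with the trend removed (−0.034). Between the genotypes the trend removed gave Tfeb 0.010, Tfe3 0.10 and Flcn 0.075. The trend removed also put the median of all genes at 0.04 with PF in WT and 0.03 with PF in AMPKβ1-/- BMDMs. It was 0.02 for the difference between the responses and 0.12 between the genotypes.

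Deviations of same-numbered libraries correlated between −0.17 and 0.317, so the numbers were not read as pairs. With the replicate number as a block, Mitf with PF in WT passed (0.50, adjusted p = 0.0256). Counts of 23 to 91 per library limit what can be said of Tfec.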

Other observations

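Genes of the kinases, phosphatases and 14-3-3 proteins that act on MiT/TFE proteins had 6 of 23 tested members called higher and 3 lower with PF in WT by edgeR, against 6.99% and 8.95% of all tested genes. These 9 calls became 0 in the WT libraries alone or without WT PF library 3, 1 without WT vehicle library 1 or WT PF library 2, 2 without WT vehicle library 3, and 17 without WT PF library 1. The largest rises were those of Map4k3 (0.67, SE 0.17, adjusted p = 0.0207), Ppp3cb (0.59, a catalytic subunit of calcineurin, which dephosphorylates TFEB) and Ywhaq (0.35, a 14-3-3 protein), and the falls were those of Mapk3 (−0.30), Mlst8 (−0.26, a subunit of mTORC1) and Gsk3a (−0.25). With the GC and length trend removed Map4k3 was the one still called (0.42, adjusted p = 0.0197). None of the 23 was called with PF in AMPKβ1-/- BMDMs, where 0.0554% of all tested genes were. Between the genotypes 11 were higher and 7 lower, against 29.7% and 30.0% of all tested genes, led by Xpo1 (1.63, the nuclear export carrier), Ppp3cb (1.15) and Map4k3 (1.10) and by Ppp2r1a (−0.55), Stub1 (−0.52) and Mapk3 (−0.52), and of these 6 Map4k3 alone was called with the trend removed (0.65, adjusted p = 0.000212).

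Of 10 tested genes associated with MITF and TFEC, 1 was called higher with PF in WT (Ostm1, 0.45, adjusted p = 0.0359 by edgeR) and 1 lower (Csf1r, the receptor for M-CSF, −0.58, SE 0.094, adjusted p = 0.00207). With the GC and length trend removed 2 of the 10 were called higher and 1 lower, against 4.01% and 2.49% of all tested genes. The lower one was again Csf1r (−0.34, adjusted p = 0.000318 by edgeR). The 2 calls as counted became 1 in the WT libraries alone and without any one of WT vehicle libraries 1 and 3 and WT PF libraries 2 and 3. With PF in WT, 6.99% of all tested genes were called higher and 8.95% lower. Between the genotypes Hif1a (1.46) and Ostm1 (0.73) were higher and 6 were lower, led by Acp5 (−0.95), Gpnmb (−0.78) and Ctsk (−0.72). Those counts stand against 29.7% higher and 30.0% lower among all tested genes. With the GC and length trend removed, 2 of the 10 were higher and 3 lower between the genotypes, against 26.4% and 10.4%. Kit, the 1 of 5 mast cell markers in the table, was at 1.11 to 1.59 CPM in WT vehicle, 2.49 to 4.02 in WT PF, 0.42 to 0.65 in AMPKβ1-/- vehicle and 0.79 to 0.87 in AMPKβ1-/- PF.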
